A study of Mus musculus with 2 samples.

Results

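The 9 genes described here are regulators of the osteoblast lineage: the transcription factors Runx2, Runx1, Cbfb, Sp7 and Mef2c, the parathyroid hormone receptor Pth1r, and the membrane proteins Ifitm5, Pdpn and Gja1. They were taken by name, and their members are the probe sets that the platform annotation gives to exactly 1 of these genes, which were 22 of 45037 non-control probe sets. A probe set is a group of short array probes against 1 transcript. No probe set was annotated to Runx2 in the annotation used here, so Runx2 was not analysed here. The single probe set of Ifitm5 lay below the signal floor, defined below, on both arrays. The remaining 7 genes were measured.

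The samples were primary osteoblast cultures grown from calvaria (the skull vault) of 7-day-old mice of the outbred CD1 strain, profiled on 2 Affymetrix arrays of total RNA. Both cultures went without serum for 24 h. The control culture then received the vehicle DMSO, and the other received 2 µM PP1, an inhibitor of c-Src and related tyrosine kinases, for a further 24 h. With 1 array per group there is no replicate, no test and no p-value, and every difference below describes these 2 arrays.

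RUNX2 and its partner CBFB, a subunit that binds no DNA itself but stabilises the RUNX proteins on it, set mesenchymal cells on the osteoblast path, and SP7 (osterix) acts downstream of RUNX2. Parathyroid hormone and its related peptide act on osteoblasts through PTH1R, mainly by way of cyclic AMP. GJA1 (connexin 43) forms the gap junctions that couple bone cells, IFITM5 (BRIL) is a bone-restricted membrane protein of mineralising osteoblasts, and PDPN (podoplanin) marks young osteocytes and also lymphatic endothelium.

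Start-site windows, running from 250 bases before to 50 bases after each RefSeq start (build GRCm38.p6), were found for 7 of the 8 annotated genes, 12 windows in all. Sp7 had no entry. The stretches below are printed because each holds a motif tied to a known regulator of bone cells, with the motif in capitals. The first is the stretch just after the upstream start of Runx1 (chr16:92826025-92826054, minus strand, bases 21 to 50 after the start), which holds 2 RUNX motifs. The second is the stretch before the start of Gja1 (chr10:56377231-56377299, plus strand), which holds an AP-1 motif at bases -19 to -13. The third lies upstream of Ifitm5 (chr7:140950337-140950405, minus strand) and holds 2 GC boxes, the kind of site that SP-family factors bind.
Runx1: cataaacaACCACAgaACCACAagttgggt
Gja1: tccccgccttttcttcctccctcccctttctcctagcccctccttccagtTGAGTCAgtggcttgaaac
Ifitm5: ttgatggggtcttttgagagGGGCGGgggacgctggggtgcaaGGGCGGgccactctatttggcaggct

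Each motif was searched on both strands, with overlapping matches allowed. The RUNX motif TGTGGT was in 1 of the 12 windows, that of Runx1, and in 16.8% of all 32851 windows. The GC box GGGCGG was in 6 windows of 5 genes (Pdpn, Ifitm5, Cbfb, Pth1r and Mef2c), against 35.7% of all windows. The AP-1 pattern TGANTCA, searched with any base at its centre, was in 2 windows (Gja1 and Mef2c), against 7.81% of all. The Gja1 match reads TGAGTCA. The Mef2c match reads TGAATCA, which lacks the G or C at the centre of the usual AP-1 site. Neither the cyclic AMP response element TGACGTCA (1.79% of all windows) nor the pattern searched for MEF2 (CTA and TAG with any 4 bases between them, 3.69%) was found in the 12. The MEF2 pattern has free centre bases and fixed ends, so its share and its absence do not stand for all forms of the MEF2 site. A match describes the letters and shows no binding.

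None of the 7 measured regulators reached a 2-fold difference between the PP1 and the DMSO culture. Across all 12111 measured genes, 2.97% had a PP1 signal that was 2-fold higher or more and 1.55% one that was 2-fold lower or more, so a count of 0 among 7 is near the background. Runx1 had the lowest ratio by its brightest probe set, 1.80-fold lower, but 4 of its 6 probe sets were higher. Cbfb, Sp7 and Pth1r were lower by 1.18-fold to 1.34-fold, and Mef2c, Gja1 and Pdpn were higher by 1.03-fold to 1.17-fold. At 1.5-fold, 1 of the 7 genes (Runx1) was lower and 0 were higher, where 7.37% of all measured genes were lower and 10.6% higher.

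Signals are given after multiplying the PP1 array by 1.68, which brings both arrays to the same 2% trimmed mean. Signals below a floor of 31.7, the median of all scaled signals, were set to it, and the log2 ratio is PP1 minus DMSO. Where a gene had several probe sets, the brightest on average over both arrays stands for it. The median log2 ratio of the 7 genes was -0.23, against 0.01 over all measured genes. It became 0.04 when each gene was represented by the median of its probe sets. The SD of the log2 ratio between probe sets of the same gene was 0.41 over 4745 genes, and it is used below as a yardstick of error between probe sets, which leaves out variation between cultures. Of the 7 genes, Runx1 (-0.85) and, narrowly, Sp7 (-0.43) had ratios larger in size than this.

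**Figure D1:**
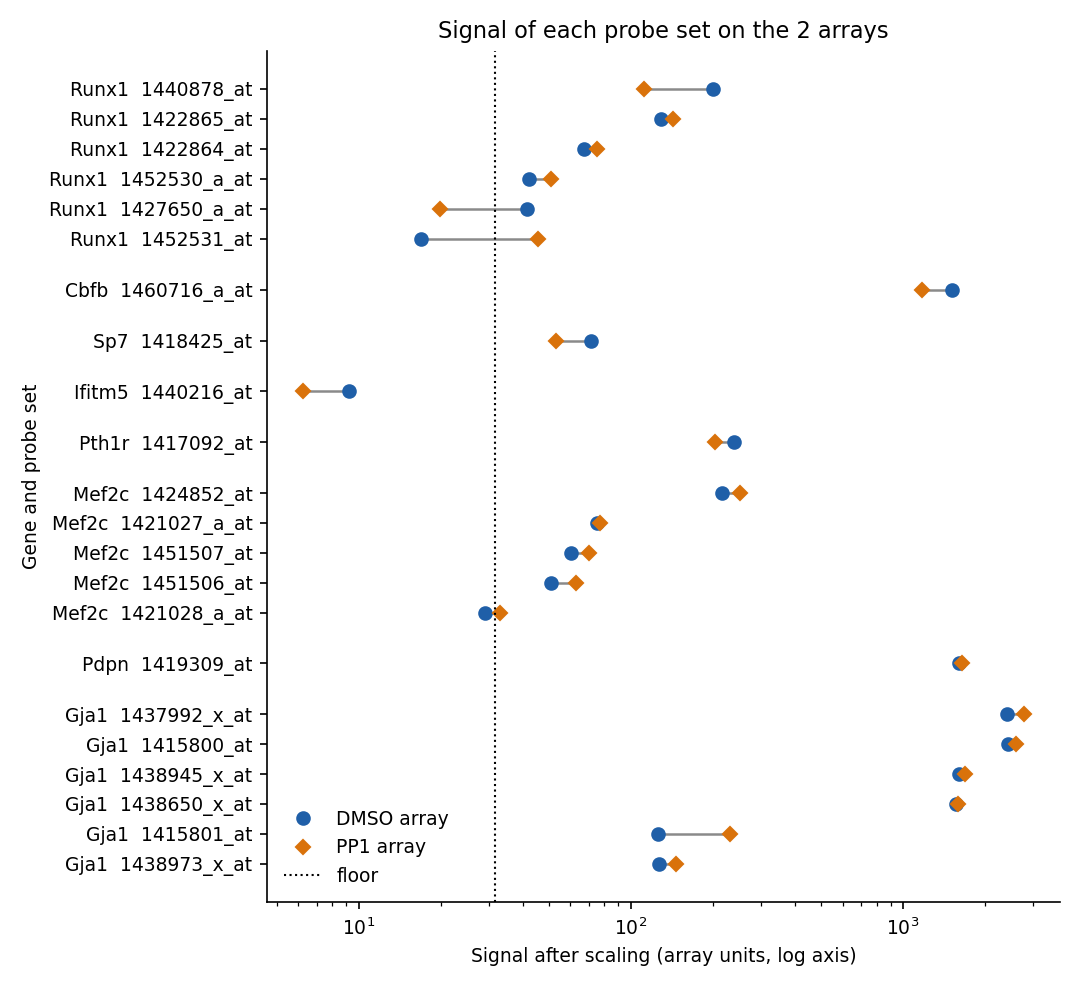
Scaled signal (array units, log axis) of the 22 probe sets on the DMSO array (circles) and the PP1 array (diamonds), grouped by gene, with the floor of 31.7 as a dotted line. For Cbfb, Sp7 and Pth1r the PP1 point lies left of the DMSO point, for Mef2c, Pdpn and Gja1 it lies right of it, and the 6 probe sets of Runx1 go both ways. Both points of Ifitm5 lie under the floor.

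As deposited, before scaling, the PP1 array was dimmer, with a trimmed mean of 94.1 against 158.1. The 18 probe sets of the bacterial hybridization controls were not dimmer, with a median log2 ratio of 0.09, PP1 minus DMSO. In the deposited values 20 of the 22 probe sets of the regulators were lower with PP1, and Runx1, Cbfb and Sp7 were each more than 2-fold lower. The median of all measured genes then stood at -0.70, so every direction given here is relative to the bulk of genes. Centring on the median in place of the trimmed mean turned the split of all genes at 2-fold from 360 higher and 188 lower to 223 higher and 351 lower. It put Runx1 at -1.02 by its brightest probe set and Pdpn at -0.13. As a measure of RNA quality, the log2 value of the 3' over the 5' control signal, PP1 less DMSO, was -0.51 for Gapdh and 0.14 for Actb.

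Runx1, the RUNX factor best known from blood formation and also expressed in skeletal progenitors, had 6 probe sets. Its brightest, 1440878_at, had a signal of 201 with DMSO and 112 with PP1, a log2 ratio of -0.85. The 2 probe sets annotated to a RefSeq transcript, 1422865_at and 1422864_at, had 129 against 143 and 67.4 against 75.04, log2 ratios of 0.15 and 0.15. These 2 were close to each other and lay on the other side of 0 from the brightest.

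The remaining 3 probe sets of Runx1 were dim. Probe set 1452530_a_at had 42.2 with DMSO and 51.0 with PP1 (0.27). Probe set 1427650_a_at had 41.6 with DMSO and lay under the floor with PP1, at least 1.31-fold lower. Probe set 1452531_at lay under the floor with DMSO and had 45.5 with PP1, at least 1.44-fold higher. The 6 ratios, with floored values at their bounds, therefore spanned at least 1.37 log2 units, against a median span of 0.97 over the 329 genes with 5 or more measured probe sets taken the same way, and their median was 0.15. The direction for Runx1 depends on the probe set.

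**Figure D2:**
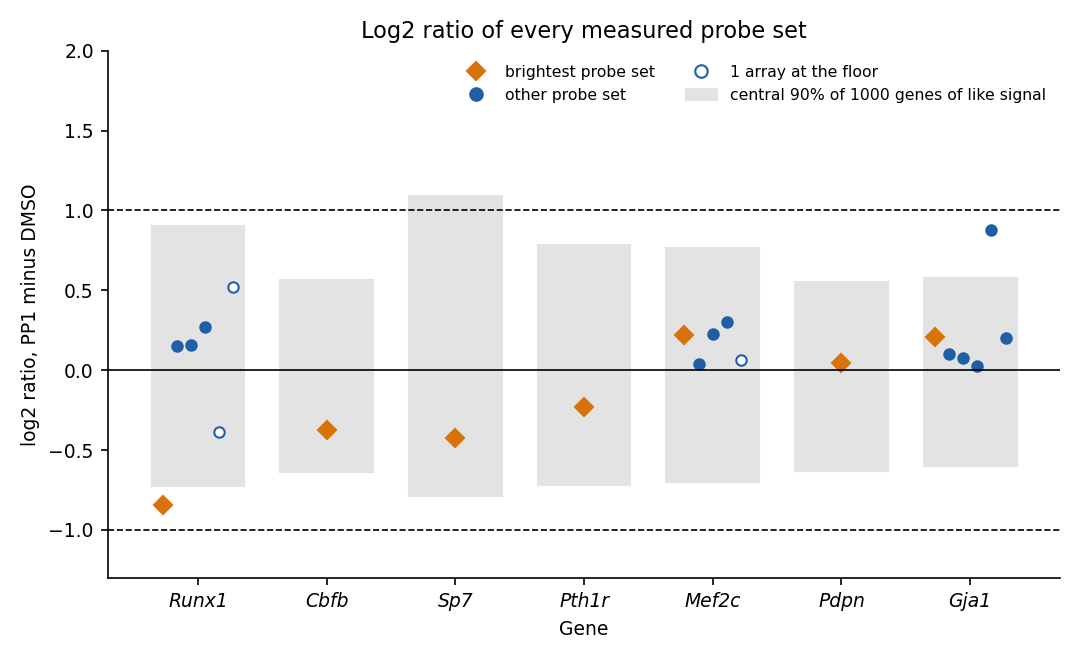
Log2 ratio (PP1 minus DMSO) of the 21 measured probe sets by gene, with diamonds for the brightest probe set and open symbols where 1 array lay at the floor. Grey boxes give the central 90% of the 1000 measured genes nearest in mean signal to the gene's brightest probe set. The boxes are not matched to the signal of dimmer probe sets. The brightest probe set of Runx1 lies below its box at -0.85, probe set 1415801_at of Gja1 lies above its box at 0.88, and the other points lie inside.

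Cbfb, the partner that the RUNX proteins share, had 1 probe set with a bright signal of 1519 with DMSO and 1172 with PP1. This is 1.30-fold lower, a log2 ratio of -0.37. Among the 1000 measured genes of nearest mean signal, the central 90% of log2 ratios ran from -0.64 to 0.56, which contains Cbfb. Its ratio lay below 0 in all 7 alternative processings that gave it a value, relative to the median of all genes, from -0.43 to -0.31. Most of these could hardly change its side. Scaling by a constant factor moves all genes alike, so subtracting the median removes most of its effect. The other floors and the median over probe sets left the ratio before subtraction at -0.37, and loess gave -0.32.

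The proteins that act with RUNX and SP7 went both ways. Of 34 listed partners and co-regulators 30 were measured, with 16 above 0, 14 below 0, 3 at least 2-fold higher and 1 at least 2-fold lower, and the median was 0.03. For this and the later lists, the shares over all measured genes were 2.97% at least 2-fold higher and 1.55% at least 2-fold lower. Runx3, the third RUNX factor, had a signal of 155 with DMSO and 49.8 with PP1 (-1.64) by 1 probe set, and its other lay under the floor on both arrays. Twist1, a repressor of RUNX2 activity, had 499 against 1450 (1.54). Among genes of the Groucho family, which includes co-repressors that bind RUNX proteins, Tle5 (397 against 1050, 1.40) and Tle2 (105 against 227, 1.11) were higher. Both probe sets of Tle1 were lower, at -0.80 and -0.22. Tle3 stood at -0.05 by its brightest probe set, its 2 other measured ones stood at 0.27 and 0.91, and 1 lay under the floor. Runx3, Twist1, Tle5 and Tle2 rested on 1 measured probe set each.

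Sp7, the zinc-finger factor that commits cells to the osteoblast fate, had a dim signal of 71.6 with DMSO and 53.3 with PP1. It was 1.34-fold lower, a log2 ratio of -0.43 by its only probe set. With DMSO it stood at 2.26 times the floor and with PP1 at 1.68 times. Genes of like signal spread widely, with the central 90% of ratios from -0.79 to 1.09, and Sp7 lay inside. A floor at the 75th percentile left no value for Sp7.

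Ifitm5 had signals of 9.18 with DMSO and 6.24 with PP1, both under the floor, so it has no order and no fold here. The 3 relatives with the largest ratios were higher with PP1. Ifitm3 had 4556 with DMSO and 8074 with PP1 (0.83), Ifitm2 1480 against 2946 (0.99) and Ifitm1 176 against 333 (0.92). These are broadly expressed interferon-induced proteins, each here with 1 probe set. Fkbp11, an endoplasmic reticulum protein that binds IFITM5 in bone cells, had 494 against 211 (-1.22), while of its 2 others 1 was under the floor with DMSO and 42.8 with PP1, and 1 was under the floor on both arrays. All 10 genes of the list of IFITM relatives and partners were measured, 6 above 0 and 4 below 0, with a median of 0.16, 0 at least 2-fold higher and 1 at least 2-fold lower.

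The matrix genes that RUNX2 and SP7 are known to drive did not share a direction. Of 18 listed, 10 were measured, 5 above 0 and 5 below 0, with a median of -0.01, 0 at least 2-fold higher and 2 at least 2-fold lower. Bone sialoprotein (Ibsp) had 159 with DMSO and 37.7 with PP1 (-2.08), the latter close to the floor, and its other probe set lay under the floor on both arrays. Col5a3, a chain of collagen V, had 1220.2 against 564.3 (-1.11) by 1 of its 2 probe sets, the other being under the floor, and the 3 probe sets of its sister chain Col5a1 ran from -0.63 to -0.53. Col1a2, a chain of the main bone collagen, stood at 0.52 and 0.28 by its 2 bright probe sets and at -0.91 by a dim one. Spp1 and Bglap were among the 6 listed genes with no annotated probe set here.

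**Figure D3:**
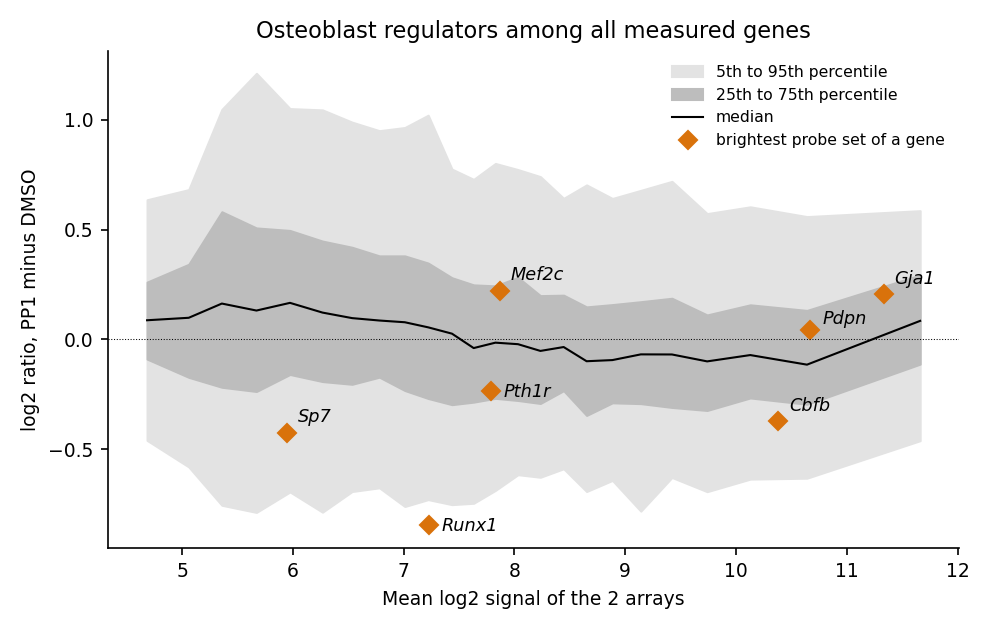
Log2 ratio (PP1 minus DMSO) against the mean log2 signal of the 2 arrays: the line and grey bands give the median, the middle 50% and the middle 90% of all 12111 measured genes in 24 bins of signal, and diamonds mark the brightest probe set of the 7 regulators. Runx1 lies below the lower band and the other 6 lie within the bands.

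Pth1r, the receptor for parathyroid hormone and its related peptide, had a signal of 240.0 with DMSO and 204 with PP1. It was 1.18-fold lower, a log2 ratio of -0.23 by 1 probe set, smaller than the spread of 0.41 between probe sets of a gene. Of its pathway, 33 of 38 listed genes were measured, 20 above 0 and 13 below 0, with a median of 0.11, 1 at least 2-fold higher and 0 at least 2-fold lower. The 1 gene past 2-fold was Ramp2, a receptor activity-modifying protein that can associate with PTH1R, with 76.9 against 208 (1.44).

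No other measured gene of the pathway was counted as 2-fold different. The beta-arrestin Arrb1, which ends receptor signalling at the membrane, had 49.4 against 93.4 (0.92). The cyclic AMP phosphodiesterase Pde4a lay under the floor with DMSO and had 60.5 with PP1, at least 1.91-fold higher. Prkar2a, a regulatory subunit of protein kinase A, had 962 against 574 (-0.74) by its brightest probe set, its 2 other measured ones stood at -0.11 and 0.59, and 1 lay under the floor. The parathyroid hormone gene Pth lay under the floor on both arrays, and Pthlh had no annotated probe set here.

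Mef2c, a MADS-box factor of muscle, endothelium and bone that controls the osteocyte gene Sost, had 5 probe sets, all above 0. The brightest, 1424852_at, had a signal of 216 with DMSO and 252 with PP1, 1.17-fold higher and a log2 ratio of 0.22. The next, 1421027_a_at, had 75.1 and 77.3 (0.04). Probe set 1451507_at had 60.2 and 70.3 (0.23), and 1451506_at had 51.0 and 62.9 (0.30). The dimmest, 1421028_a_at, lay under the floor with DMSO and had 33.1 with PP1.

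The ratios of Mef2c were small but close together, spanning 0.26 log2 units. Among genes with 5 or more measured probe sets, 14.6% (48 of 329) had all of them above 0, a group that includes both Mef2c and Gja1. Relative to the median of all genes, Mef2c was above 0 in each of 8 alternative processings, from 0.16 to 0.26. Most of these could hardly change its side. Scaling by a constant factor moves all genes alike, so subtracting the median removes most of its effect. The other floors, the median over probe sets and leaving out shared probe sets left the ratio before subtraction at 0.22. Loess gave 0.21. As deposited, without scaling, the brightest probe set of Mef2c stood at -0.53.

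Of 13 listed MEF2 factors, class IIa histone deacetylases (which bind and repress MEF2 proteins) and cofactors, 11 were measured, 4 above 0 and 7 below 0, with a median of -0.07. None was at least 2-fold higher and 1 was at least 2-fold lower. That 1 was Hdac9, with 72.7 with DMSO and under the floor with PP1, at least 2.29-fold lower, and its other probe set lay under the floor on both. Hdac5 had 155 against 253 (0.71), and Hdac4 stood at -0.44 and -0.75 by its 2 brighter probe sets and at 0.42 by its dimmest. Mef2a stood at -0.15 by its brightest probe set, with its 3 other measured probe sets from 0.15 to 0.34 and 2 more under the floor. The 3 probe sets of Mef2d ran from -0.51 to -0.07. All 3 probe sets of the cofactor Vgll3 were lower, from -0.66 to -0.34. Sost lay under the floor on both arrays.

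Pdpn, a mucin-like membrane protein of early osteocytes that links to the cytoskeleton through ezrin-family proteins, had a bright signal of 1603 with DMSO and 1652 with PP1. The log2 ratio was 0.04 by 1 probe set, or 1.03-fold, the ratio nearest to 0 among the 7 genes. Relative to the median of all genes its sign turned in 3 of 8 alternative processings, with a range from -0.01 to 0.09. Of 18 listed osteocyte genes and podoplanin partners 9 were measured, 5 above 0 and 4 below 0, with a median of 0.04 and 0 past 2-fold in either direction. Moesin (Msn), which ties membrane proteins to actin, had 3315 against 2014 (-0.72), but its dimmer probe set stood at 0.66. The 3 measured probe sets of the hyaluronan receptor Cd44, which binds podoplanin, were lower, from -0.51 to -0.34, and a further one lay under the floor. The 4 probe sets of the protease inhibitor Timp3 ran from -0.71 to -0.28. The 3 of the membrane protease Mmp14, which osteocytes need to form their processes, ran from 0.52 to 1.90. Mature osteocyte genes (Dmp1, Phex, Mepe, Sost and Fgf23) were under the floor on both arrays.

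Gja1 had 6 probe sets, all above 0. The 2 brightest were 1437992_x_at, with a signal of 2410 with DMSO and 2778 with PP1 (0.21, 1.15-fold), and 1415800_at, with 2433 against 2605 (0.10). Probe sets 1438945_x_at and 1438650_x_at had 1601 against 1687 (0.08) and 1565 against 1592 (0.02). These 4 bright probe sets differed between the arrays by less than the spread of 0.41 between probe sets.

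The 2 dim probe sets of Gja1 diverged from each other. Probe set 1438973_x_at had 127 with DMSO and 146 with PP1 (0.20), whereas 1415801_at had 126 against 232, 1.84-fold higher (0.88). The ending _x_at marks probe sets that the array maker flags as able to match other transcripts, and it applies to 4 of the 6. By its brightest probe set without that mark, 1415800_at, Gja1 stood at 0.10.

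Most of the other connexins lay under the floor or had no annotated probe set, while the junction genes Tjp1, Cav1, Ctnnb1, Cdh2, Cdh11 and Dbn1 were measured. Of 28 listed genes 10 were measured, 11 were under the floor on both arrays and 7 had no annotated probe set here. Of the 10, 4 were above 0 and 6 below 0, with a median of -0.11 and 0 past 2-fold in either direction. Connexin 26 (Gjb2) had 286 against 179 (-0.67), and caveolin 1 (Cav1), which binds connexin 43, had 3147 against 2322 (-0.44). Connexin 45 (Gjc1), the other connexin of osteoblasts, had 429 against 339 (-0.34), while its dim second probe set was under the floor with DMSO and 98.5 with PP1. Cadherin 11 (Cdh11), the osteoblast cadherin, stood at 0.37 by its brightest probe set and at -0.08 by the other.

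**Figure D4:**
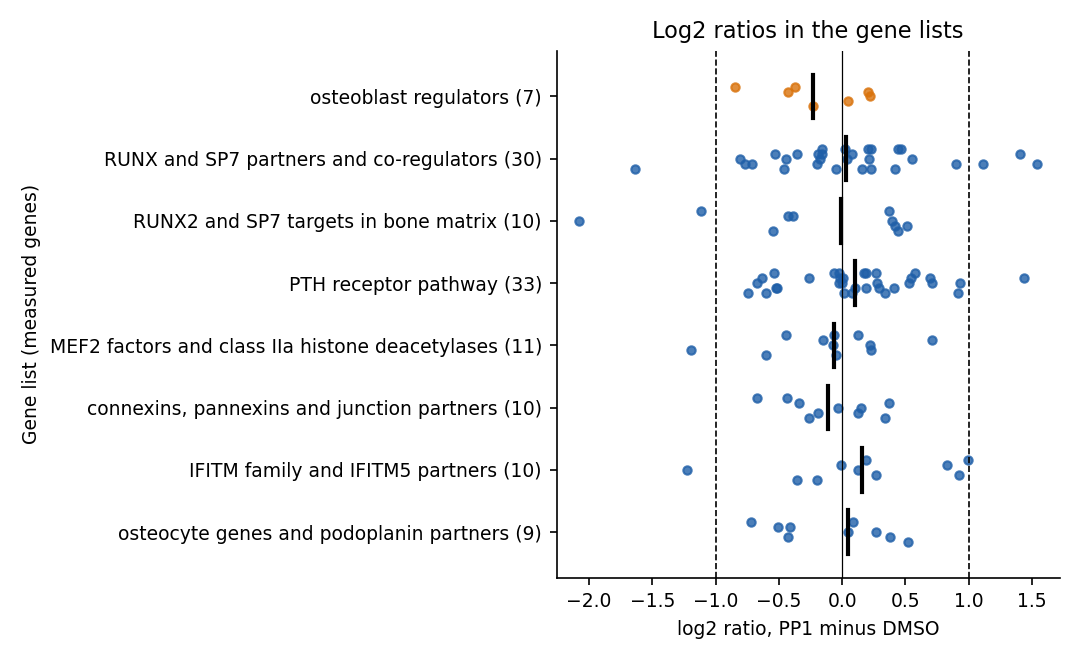
Log2 ratio (PP1 minus DMSO) of each measured gene, by its brightest probe set, in the regulator list and 7 related gene lists, with the number of measured genes in brackets, black bars for list medians and dashed lines at 2-fold. The regulators lie between -0.85 and 0.22, and every list holds genes on both sides of 0, with medians from -0.23 to 0.16.

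Differences between the members' ratios do not depend on the scale factor between the arrays. By brightest probe sets, the ratio of Runx1 lay 1.07 log2 units below that of Mef2c and 1.05 below that of Gja1, and that of Cbfb lay 0.58 below that of Gja1. Cbfb and Sp7 differed by 0.05. The differences that involve Runx1 hold for its brightest probe set, and not for the 4 that were higher.

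**Figure D5:**
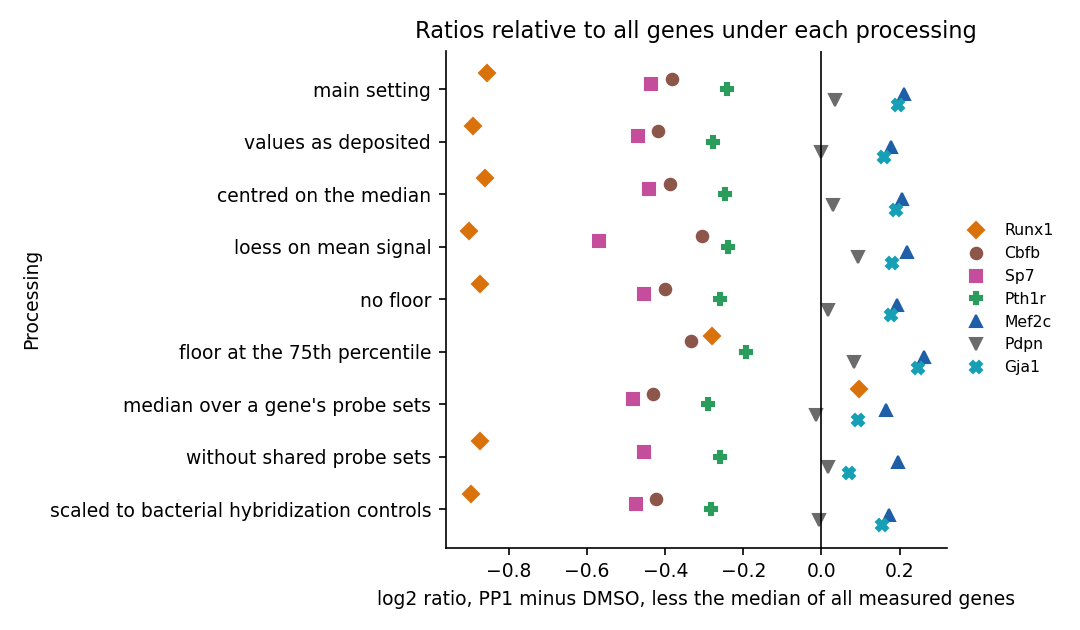
Log2 ratio (PP1 minus DMSO) of the 7 regulators, less the median of all measured genes, in the main setting and 8 alternative processings. Cbfb, Sp7 and Pth1r lie left of 0 wherever they have a value, Mef2c and Gja1 lie right of 0 in all, Pdpn lies near 0, and Runx1 moves from -0.86 to 0.10 when the median over its probe sets is used. Subtracting the median removes most of the effect of scaling by a constant factor, so those rows could hardly differ. The median over probe sets cannot alter the ratio of a gene with a single probe set.

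The cultures carried osteoblast markers and RNA of other cells. Of 10 osteoblast markers 7 were measured, 4 above 0 and 3 below 0, with a median of 0.37, 0 at least 2-fold higher and 1, Ibsp (-2.08), at least 2-fold lower. Their summed signal was 24750.3 with DMSO and 33486 with PP1, most of it from collagen I and Sparc. The measured markers include Sp7, itself a regulator described here and below 0. Alpl, Col1a1, Col1a2, Ibsp and Sparc also stand in the list of RUNX2 and SP7 targets, so these lists overlap. Col1a1 had 7558 against 9931, Alpl 188 against 242 and Dlx5 218 against 190.0, and Phex was under the floor on both arrays. Some of the regulators are also active in blood cells, muscle and endothelium, and in such bulk RNA fewer cells of a type and less RNA per cell cannot be told apart.

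All 14 macrophage and blood markers were measured, 9 above 0 and 5 below 0, with a median log2 ratio of 0.16. Their summed signal was 15480 with DMSO and 18187 with PP1. Past 2-fold, 1 was higher, Mrc1 with 437 against 945 (1.11), and 0 were lower. Cd68 stood at 0.73, and the 3 probe sets of C1qb ran from -1.16 to -0.17. The blood cell regulator Spi1 had 101 against 104. The part of these markers in the Runx1 and Mef2c signals was not tested. Of 11 skeletal muscle markers 8 were measured, 6 above 0 and 2 below 0, with a summed signal of 1139 against 1283 and a median of 0.53. The 2 that were at least 2-fold higher were dim: Des had 39.4 against 106 (1.43), and Myog lay under the floor with DMSO and had 81.8 with PP1. Their part in the Mef2c signal was not tested either. Of 10 vascular and lymphatic endothelial markers 5 were measured, 3 above 0 and 2 below 0, with a summed signal of 234 against 270.3 and a median of 0.08. Pecam1, Tie1, Emcn, Lyve1 and Prox1 lay under the floor on both arrays, while Flt4, also a lymphatic marker, had 72.0 against 63.6, Egfl7 71.4 against 75.5, Tek 32.3 against 55.2 and Kdr 34.6 against 34.3. Cdh5 lay under the floor with DMSO and had 41.6 with PP1. Their part in the Pdpn and Mef2c signals was not tested.

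For the other marker lists the values were as follows. Of 11 fibroblast and periosteum markers 10 were measured, 8 above 0, with a summed signal of 15970.2 against 22742 and a median of 0.62. Past 2-fold, 2 were higher, Scara5 (1.66) and Twist1 (1.54, also among the listed RUNX and SP7 partners), and 0 were lower. Of 9 smooth muscle and pericyte markers 8 were measured, 2 above 0, with 11448 against 8685 and a median of -0.40. Past 2-fold, 3 were lower: Cspg4 (-1.74), Actg2 (-1.54) and Cnn1, under the floor with PP1 and at least 2.58-fold lower. In the same list 1 was at least 2-fold higher, Des (1.43). Of 11 cartilage markers 8 were measured, 2 above 0, with 6239 against 5448, a median of -0.17 and 1 (Acan, -1.18) at least 2-fold lower. Of 10 osteoclast markers 6 were measured, 1 above 0, with 1826 against 1650.1, a median of -0.11 and 0 past 2-fold. Of 7 adipocyte markers 5 were measured, all above 0, with 4191 against 7659, a median of 0.55 and 1 (Lpl, 1.32) at least 2-fold higher. Their part in the ratios of the regulators was not tested.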

How the data were processed

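Expression was measured on 2 Affymetrix arrays, 1 per condition. The deposited values are linear intensity signals per probe set, made by the authors with MAS5, per the submitters' processing notes; no version, target scaling or detection call came with them. The PP1 array was scaled to the DMSO array by 2% trimmed means over 45037 non-control probe sets, signals under the median of both arrays were set to it, and log2 was taken. Gene names came from the platform annotation and were brought up to date through a RefSeq table (34741 of 34945 probe sets with 1 gene matched by identifier). A gene was measured when its brightest probe set by mean log2 signal exceeded the floor on either array, as 12111 of 18193 genes did. Ratios with 1 array at the floor are bounds. On simulated data, the recovery of the scale factor and the removal of a signal trend by loess were tested. No limit was set there for the fold calls. Precision is limited by the number of arrays. The members, lists and rules were chosen with earlier results of these data known. Named genes are all members, up to 4 per related list by size of the ratio, and listed direct partners. Genes under the floor and cell type markers were named after their values were seen. With 2 arrays, no likeness between gene patterns was computed. The alternatives were 3 other scalings, other floors, probe set choices and fold thresholds, and scaling to bacterial hybridization controls, added after seeing the data. Python 3.11.15, numpy 2.4.6, pandas 2.3.3 and statsmodels 0.14.6 were used.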

Additional observations from a re-analysis of the deposited data

How the results depend on the processing

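No paired analysis was possible because each group is 1 array. Without scaling, 3 regulators (Runx1, Cbfb and Sp7) were at least 2-fold lower, their median was -0.98, and 50 genes in all were higher and 2877 lower. Scaled to the hybridization controls, 4 regulators (also Pth1r) were lower, the median was -1.08, and 35 genes were higher and 3774 lower. Centred on the median, 1 regulator (Runx1) was lower, with 223 genes higher and 351 lower. No floor gave 2064 higher and 1522 lower, and a floor at the 75th percentile 111 and 84, neither with a regulator past 2-fold. At 1.5-fold, 1 regulator was lower, with 1282 genes higher and 893 lower, and at 3-fold none was, with 60 and 42. No regulator was at least 2-fold higher in any of the 10 alternatives. Loess, the median over probe sets and leaving out shared probe sets kept the count of regulators at 0 and the gene counts within 1.5 times. Shared probe sets were taken as those ending in _s_at, _x_at or _a_at. Leaving them out gave no value for Cbfb, so that count is over 6 regulators. The median of the regulators lay between -0.41 and 0.04 in the alternatives other than no scaling and the hybridization controls. Dim signal limits 5 of the 22 probe sets, which had at least 1 array under 1.5 times the floor (3 of Runx1, 1 of Mef2c and that of Ifitm5).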
